A study of Mus musculus with 35 samples.

Results

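The H3K27me3 domains of c34 oocyte-like cells were compared with those of c13 oocyte-like cells, both grown from mouse embryonic stem cells, on autosomes 1 to 19. All regions of the c34 and c13 H3K27me3 lists on these chromosomes were taken, 5254 in c34 and 2860 in c13, together 8114 of the 167982 regions in the 13 deposited peak lists of the study. The study mapped histone marks in the female germ line by CATCH-seq, in which unfixed chromatin of few cells is cut with micrococcal nuclease and precipitated with an antibody beside carrier DNA. The c34 and c13 cells were wild type by genotype and came from embryonic stem cell line H18 with its Prdm1-mVenus and Dppa3-ECFP reporters, with 2 H3K27me3 libraries at each of these stages. Other lists served only as descriptions: c7 oogonia-like cells of the same line (2 H3K27me3 libraries), E18.5 oocytes from mice with these reporters (2) and germinal vesicle (GV) oocytes of BDF1 mice (1). The labels give 1 line for the cultured cells and name a culture without ovarian soma in the title of the study, so every cultured list describes that line under that condition.

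H3K27me3 is the methylation of histone H3 that Polycomb repressive complex 2 writes through its catalytic subunits Ezh2 or Ezh1, and it accompanies silencing of developmental genes. H3K36me3 is deposited along transcribed genes, largely by Setd2, and inhibits Polycomb repressive complex 2 on the nucleosome that carries it, so the marks usually occupy different chromatin. Growing mouse oocytes spread H3K27me3 over wide intergenic domains, and at some genes this mark passes to the embryo and silences the maternal allele, a form of imprinting that needs no DNA methylation.

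Each list held positions with no score and no library identity, so there was no replicate spread and no test, and a region here is in a list or not. A region may leave a list because fewer cells carry the mark or because each cell carries less of it, which cannot be told apart. "Lost" means present in the c13 list and absent from the c34 list, "gained" the reverse, and "kept" or "shared" present in both.

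Gene starts differed in sequence between the lost, kept and gained groups, and 6 promoters are shown as examples because the text returns to their genes. They are the first members, in symbol order, of a meiotic list (lost), a list of developmental regulators (kept) and a pluripotency list (gained) for which RefSeq gives a sequence. Each runs 5′ to 3′ on the strand of the gene, from 250 bases before to 50 bases after the annotated start (RefSeq, GRCm38.p6). Capitals mark the letters CG, a motif that reads the same on both strands and that 95.0% of the 16456 promoters of this length held at least once.
Bhmg1 (lost, chr7:19118295-19118594, minus strand): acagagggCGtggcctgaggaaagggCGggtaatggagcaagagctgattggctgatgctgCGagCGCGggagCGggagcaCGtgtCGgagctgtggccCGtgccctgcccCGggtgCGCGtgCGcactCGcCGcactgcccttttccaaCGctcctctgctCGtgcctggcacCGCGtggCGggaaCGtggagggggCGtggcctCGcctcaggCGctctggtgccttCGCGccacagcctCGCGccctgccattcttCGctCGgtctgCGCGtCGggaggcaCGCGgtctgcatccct
Dmc1 (lost, chr15:79605060-79605359, minus strand): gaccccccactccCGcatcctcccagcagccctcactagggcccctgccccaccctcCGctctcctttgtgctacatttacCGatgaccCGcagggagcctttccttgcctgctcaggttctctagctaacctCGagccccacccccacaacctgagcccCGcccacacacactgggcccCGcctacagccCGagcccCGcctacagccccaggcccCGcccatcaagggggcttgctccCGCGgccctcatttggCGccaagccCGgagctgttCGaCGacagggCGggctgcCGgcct
Cdx2 (kept, chr5:147307200-147307499, minus strand): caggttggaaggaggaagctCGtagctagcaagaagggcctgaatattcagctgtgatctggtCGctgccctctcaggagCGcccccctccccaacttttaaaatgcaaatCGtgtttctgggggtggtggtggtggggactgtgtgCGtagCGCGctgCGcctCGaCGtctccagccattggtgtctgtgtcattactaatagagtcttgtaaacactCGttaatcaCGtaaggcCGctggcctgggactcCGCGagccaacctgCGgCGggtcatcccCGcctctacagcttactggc
Eomes (kept, chr9:118477939-118478238, plus strand): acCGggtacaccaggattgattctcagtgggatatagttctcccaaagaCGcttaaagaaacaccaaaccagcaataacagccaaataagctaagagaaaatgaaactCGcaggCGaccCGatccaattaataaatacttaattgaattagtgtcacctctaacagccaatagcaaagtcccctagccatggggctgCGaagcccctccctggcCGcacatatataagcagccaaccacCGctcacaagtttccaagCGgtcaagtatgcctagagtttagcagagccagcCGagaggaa
Nanog (gained, chr6:122707239-122707538, plus strand): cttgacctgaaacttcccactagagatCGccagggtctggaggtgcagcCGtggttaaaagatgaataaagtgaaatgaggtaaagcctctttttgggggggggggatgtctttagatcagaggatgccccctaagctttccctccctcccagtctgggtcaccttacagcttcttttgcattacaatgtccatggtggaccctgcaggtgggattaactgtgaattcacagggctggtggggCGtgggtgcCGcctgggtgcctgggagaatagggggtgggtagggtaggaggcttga
Zfp42 (gained, chr8:43306960-43307259, minus strand): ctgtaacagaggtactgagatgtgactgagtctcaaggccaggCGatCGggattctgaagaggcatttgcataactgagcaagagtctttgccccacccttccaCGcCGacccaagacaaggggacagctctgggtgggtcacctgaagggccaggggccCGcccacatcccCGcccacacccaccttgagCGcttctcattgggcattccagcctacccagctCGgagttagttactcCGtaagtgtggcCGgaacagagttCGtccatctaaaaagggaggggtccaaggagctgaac

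Bhmg1 held 35 CG and Dmc1 18, Cdx2 held 18 and Eomes 10, and Nanog held 4 and Zfp42 11. Over all genes with a promoter sequence the median number of CG was 19 at lost starts (n = 4203), 12 at kept starts (n = 5273), 5 at gained starts (n = 1106) and 12 at starts in neither list (n = 5874). The median GC content was 60% at lost, 57.7% at kept and 50% at gained starts, and the median ratio of observed to expected CG was 0.73, 0.52 and 0.29 in the same order. Gene starts that left the list were thus richer in CG than those that stayed or joined. Among starts marked in c13, the share that was lost was 31.6% for promoters with 0 to 4 CG, 32.1% with 5 to 9, 46.7% with 10 to 19, 53.2% with 20 to 29 and 55.6% with 30 or more. Among starts marked in c34, the share that was gained ran the other way, from 29.3% in the class with the fewest CG to 9.14% in that with the most. That share depends on how many starts c13 already marked: 40.5% with 0 to 4 CG, 69.4% with 5 to 9 and 61.7% with 30 or more. It therefore does not show that the class with the fewest CG gained most.

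The c34 list was made of more and narrower domains. It covered 908 Mb or 36.9% of the autosomes with a median width of 100 kb, against 1043 Mb or 42.4% and a median of 200 kb in c13. The widest domain was 2220 kb in c34 and 5510 kb in c13, and 63 domains of 1 Mb or more held 9.13% of the c34 length against 235 that held 37.0% of the c13 length. The c13 list stood apart from the others in width: the median was 110 kb in c7, 160 kb at E18.5 and 110 kb in GV oocytes, and domains of 1 Mb or more held 11.2%, 14.5% and 8.94% of their length. No 2 domains of any of the 5 H3K27me3 lists lay closer than 40 kb, so a split below means a gap of at least 40 kb. The depth of the libraries and the calling threshold are unknown, and their part in these widths was not tested.

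Of the 2860 c13 domains, 522 (18.3%) were lost, 833 (29.1%) were split into separate c34 domains, 670 (23.4%) were trimmed to less than 80% of their width and 835 (29.2%) were kept whole. Lost domains were narrow, with a median of 50 kb and 4.06% of the c13 length, while split domains had a median of 610 kb and made up 64.3% of it. The fate followed width: 213 of 235 domains of 1 Mb or more were split and 0 were lost, against 0 split and 269 lost of 602 domains of 10 to 50 kb. A wide domain has more room for a gap and more length for a single overlap to save it, so the order by width is in part fixed by the definitions. Of the split domains, 464 gave 2 pieces, 198 gave 3 and the most divided gave 16. The counts depend on how the lists are cut: 35 domains were lost when the narrowest c13 domains were left out until both lists had equal length, and 230 were lost and 446 split when gaps of up to 100 kb were closed, an alternative chosen after seeing the data.

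**Figure D1:**
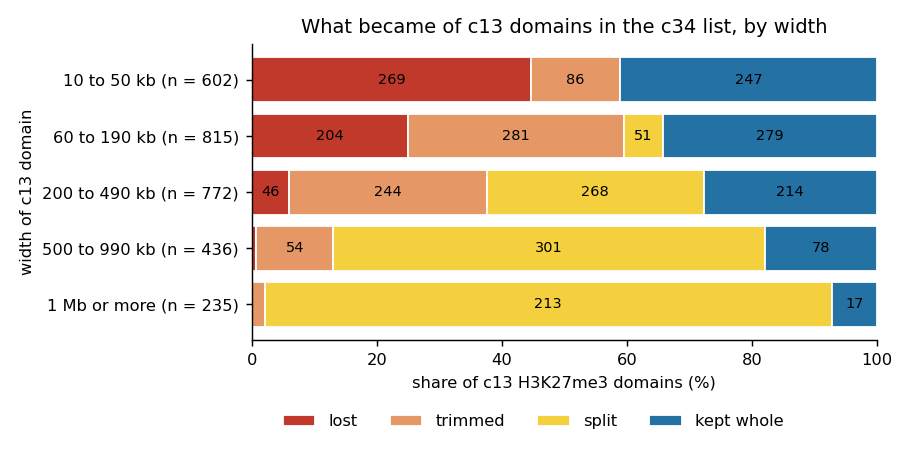
Share of c13 H3K27me3 domains (horizontal axis, %) that were lost, trimmed, split or kept whole in the c34 list, by width of the c13 domain (vertical axis). Numbers in the bars are domains; 269 of 602 domains of 10 to 50 kb were lost, and 213 of 235 domains of 1 Mb or more were split.

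Lost domains and kept domains differed in gene content and in lists that did not define them. Lost domains held 13.4 protein-coding gene starts per Mb, split domains 11.5, trimmed domains 12 and domains kept whole 9.67. The c34 H3K36me3 list covered 69.7% of the length of lost domains and 19.4% of that of domains kept whole, and 288 of the 522 lost domains were covered to at least 80% against 43 of 835 kept whole. In GV oocytes, 22 of 522 lost domains (4.21%) touched an H3K27me3 domain, against 622 of 835 kept whole (74.5%). Before c13 the picture was less divided: 292 lost domains (55.9%) touched a c7 domain, against 620 kept whole (74.3%). A wider domain is touched more easily, and the median width was 50 kb for lost domains and 130 kb for those kept whole. By length, the GV H3K27me3 list covered 2.50% of lost domains and 65.0% of those kept whole, and the c7 list 40.5% and 60.6%.

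The 5 widest lost domains carried 0% H3K27me3 in GV oocytes. The widest, chr10:122430001-122980000 (GRCm38, 550 kb), spans Avpr1a, a vasopressin receptor gene, and Ppm1h, a phosphatase gene, and c34 H3K36me3 covered 100% of it. The second, chr16:4210001-4730000 (520 kb), holds 11 protein-coding genes, among them Crebbp, which encodes a histone acetyltransferase, the adenylate cyclase gene Adcy9 and Glis2, a zinc finger gene, and all 11 starts were lost under full c34 H3K36me3 cover. chr9:22390001-22890000 (500 kb) with Rp9 and Bbs9, a gene of the cilium, was likewise fully covered. chr16:56200001-56680000 (480 kb) with Impg2 and Abi3bp was the exception in c13, where H3K36me3 covered 0% of it, and had 72.9% in c34. chr1:36370001-36800000 (430 kb) held 13 genes, of which 12 starts were lost, among them the transporter genes Cnnm4 and Cnnm3.

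The stretches lost from split domains were richer in genes than the pieces and, in c34 but not in c13, far more covered by H3K36me3. The 833 split domains left 2406 pieces of 427 Mb in c34, with 1573 gaps of 171 Mb between them (median 70 kb) and 995 lost ends of 72.5 Mb. Gaps held 13.2 gene starts per Mb and lost ends 15.9, against 10.1 in the pieces. Gene bodies filled 59.2% of the gaps and 40.5% of the pieces. The c34 H3K36me3 list covered 81.5% of the gaps and 80.1% of the lost ends, against 27.7% of the pieces, whereas the c13 H3K36me3 list covered 80.4%, 81.8% and 77.2% of the same stretches. In GV oocytes H3K27me3 covered 3.92% of the gaps and 1.64% of the ends, against 60.4% of the pieces.

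The c13 domain with the most pieces, chr5:115620001-121130000 (5510 kb, 49 protein-coding genes), shows the pattern in detail. It lay within a single H3K36me3 region in c13, whereas c34 had 16 H3K27me3 pieces of 20 to 790 kb and 13 H3K36me3 regions across it. The 2 marks overlapped in places in c34, with H3K36me3 over 60.4% of the domain. H3K27me3 covered 54.8% of it in c34, 35.9% in GV oocytes, 85.8% in c7 and 86.2% at E18.5. Of its genes 24 were lost and 24 kept: Bicdl1, a motor adaptor gene, Cit, a kinase gene of cytokinesis, and Prkab1, a subunit gene of AMP-activated kinase, were lost, and Tmem233 was kept. Farther along, Taok3, Ksr2 and Nos1 (kinase and nitric oxide synthase genes) were lost while the T-box genes Tbx3 and Tbx5 and the LIM homeobox gene Lhx5 were kept (names chosen after their values were seen). All 24 lost genes had c34 H3K36me3 over at least 50% of the body and 0 had H3K27me3 at the start in GV oocytes, against 15 and 15 of the 24 kept genes; c34 H3K36me3 lay over 90.9% of lost genes on all autosomes. GV oocytes had 10 domains here, of which 9 overlapped c34 pieces, and 9 of the 16 c34 pieces overlapped a GV domain.

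**Figure D2:**
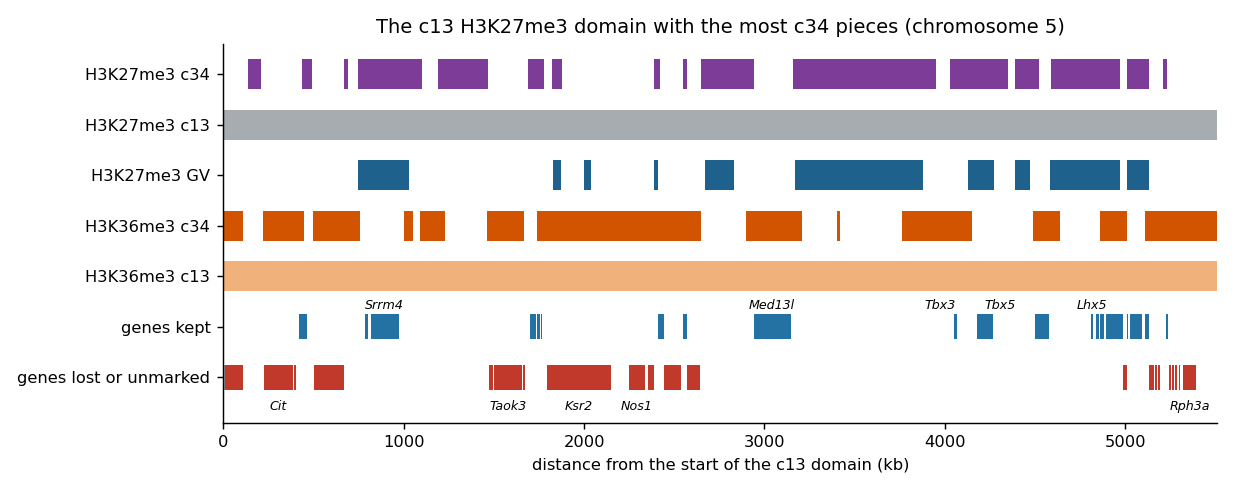
The most divided c13 H3K27me3 domain, drawn to scale as distance from its start (horizontal axis, kb). Rows show the peak lists (H3K27me3 of c34, c13 and GV, H3K36me3 of c34 and c13) and the 49 protein-coding genes by fate at their starts (24 kept, 24 lost, 1 in neither list); c13 has 1 unbroken region in each of its rows, while c34 has 16 H3K27me3 pieces and 13 H3K36me3 regions, which overlap in places.

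The other most divided domains also held both lost and kept starts, in differing proportions. chr19:54040001-59290000 (5250 kb, 15 pieces) had 14 lost and 22 kept starts, chr4:150620001-155490000 (4870 kb, 12 pieces) had 27 and 33, chr2:170140001-173660000 (3520 kb, 10 pieces) had 6 and 21, and chr15:77840001-80790000 (2950 kb, 10 pieces) had 24 and 52. The chr19 domain begins with Adra2a, an adrenergic receptor gene, and Gpam, an acyltransferase gene of lipid synthesis, and the chr4 domain with Rere, a corepressor gene. The c13 H3K36me3 list covered 100% of each of these domains, and the c34 list 48.4% of the chr19 domain, 56.1% of the chr4 domain, 38.1% of the chr2 domain and 68.8% of the chr15 domain.

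The 5 longest unbroken stretches of lost length held 1 to 3 protein-coding gene starts each. The longest, chr16:5230001-6970000 (1740 kb), runs along Rbfox1, a neuronal splicing factor gene, with the starts of Alg1 and Eef2kmt. The next were chr15:92160001-93180000 (1020 kb, the cell adhesion gene Cntn1 and Pdzrn4), chr14:28760001-29730000 (970 kb, the calcium channel subunit gene Cacna2d3 and Lrtm1), chr14:27510001-28430000 (920 kb, Erc2, a gene of the presynaptic active zone) and chr17:66600001-67490000 (890 kb, the receptor phosphatase gene Ptprm). The c34 H3K36me3 list covered 72.4% of the Rbfox1 stretch and between 94.1% and 96.9% of the other 4, and GV H3K27me3 covered 0% of all 5. The widest domain kept whole, chr11:80690001-82760000 (2070 kb, the ion channel gene Asic2 and chemokine genes such as Ccl2 and Ccl7), had c34 H3K36me3 over 4.35% and GV H3K27me3 over 86.0%. The next widest kept whole, chr12:106050001-108110000 (2060 kb), surrounds Bcl11b, a transcription factor gene, and was covered to 97.6% in c34 and 98.1% in GV oocytes, with c34 H3K36me3 over 35.9%, near the 36.5% of all autosomes.

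Measured by length, 381 Mb of c13 H3K27me3 was lost (36.5%, range over the 19 autosomes 28.8% to 48.7%), 662 Mb was shared and 246 Mb was gained, which is 27.1% of the c34 length (range 5.97% to 39.6%). The c34 list covered 0.87 times the c13 length, with less length than c13 on 15 of 19 autosomes; without the domains of 1 Mb or more of both lists it covered 1.25 times the c13 length, and 52.6% of it was gained. Lost length held 13.6 gene starts per Mb, shared length 10.1 and gained length 5.51, against 8.40 over the autosomes and 6.38 in length marked at neither stage. The ratio of lost to shared density was 1.35 (SD over the 19 autosomes 0.30), and lost length was denser than shared length on 17 of 19. The ratio of gained to shared density was 0.55 (SD 0.16), and gained length was sparser than shared length on all 19. The autosomes are parts of the same libraries, so this spread covers variation along the genome and no replicate error.

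Lists of other marks and stages did not enter the definition of these classes, and some of them covered lost and shared length differently while others did not. The c34 H3K36me3 list covered 78.9% of lost, 24.9% of shared and 13.7% of gained length, and the GV H3K36me3 list 77.7%, 28.2% and 17.7%. The c13 H3K36me3 list covered lost and shared length nearly alike, 77.7% and 73.8%, and so did the E18.5 H3K36me3 list, 23.3% and 19.6%. GV H3K27me3 covered 2.92% of lost, 61.2% of shared and 55.9% of gained length, whereas the E18.5 list covered 41.5%, 63.8% and 56.5% and the c7 list 45.0%, 64.3% and 41.1%. H3K4me3, the mark of active and poised promoters, covered 25% of lost and 10.4% of shared length in c34, 21.5% and 16.3% in c13, and 10.3% and 7.18% at E18.5, whereas in GV oocytes it covered less of lost than of shared length, 32.4% against 36.4%. Length lost from the c34 list was therefore also nearly absent from the H3K27me3 list of GV oocytes, which covered 28.3% of all autosomes. The E18.5 list covered 41.5% of lost length, near its 39.7% of all autosomes, and the c7 list 45.0% against 35.1%.

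**Figure D3:**
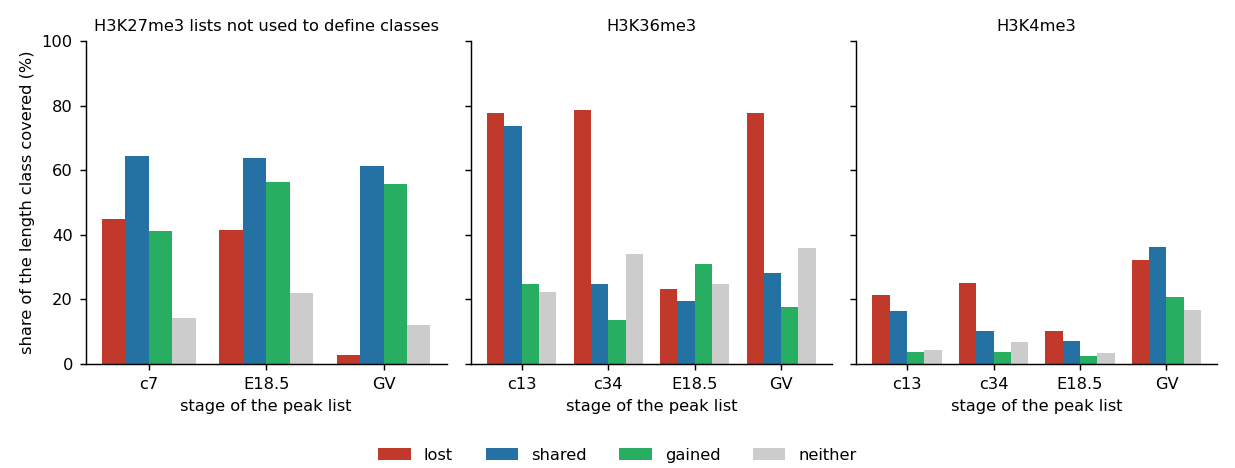
Share of each class of autosomal length (vertical axis, %) covered by peak lists that did not define the classes; panels show H3K27me3, H3K36me3 and H3K4me3, the horizontal axis the stage of the list, and colours the length lost, shared, gained or marked at neither stage between c13 and c34. Lost length stands at 2.92% in the GV H3K27me3 list and at 78.9% in the c34 H3K36me3 list.

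The overlap of H3K27me3 and H3K36me3 itself differed between the stages. In c34, 21.9% of the H3K27me3 length also lay in the H3K36me3 list, against 75.3% in c13, 27.6% at E18.5 and 14.7% in GV oocytes. Of c13 H3K27me3 length that the c34 H3K36me3 list covered (465 Mb), 64.6% was lost, against 13.9% of the 578 Mb that it did not cover. Split instead by the c13 H3K36me3 list, the shares were 37.7% with H3K36me3 and 32.9% without. The c13 H3K36me3 list had 80.6% of its length in regions of 1 Mb or more, against 4.93% for the c34 list, so both c13 lists were made of wide regions, and the part of library depth or quality in their overlap was not tested.

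Gained domains held few gene starts, at a density near that of length marked at neither stage. Of the 5254 c34 domains, 1539 (29.3%) overlapped no c13 domain, 3539 lay over a single c13 domain (2913 of them wholly inside it) and 176 joined 2 or more. The gained number was 2400 without domains of 1 Mb or more, 2528 at equal list length and 816 with gaps of up to 100 kb closed. Gained domains had a median width of 70 kb, held 6.40 gene starts per Mb, and 1043 of them (67.8%) held none. They can lie only outside c13 domains, and length marked at neither stage held 6.38 starts per Mb. Among c34 domains over a single c13 domain, with a median of 110 kb, 34.2% held no start. The part of width in this difference was not tested. The c34 H3K36me3 list was absent from 1068 gained domains (69.4%). GV H3K27me3 touched 764 of them (49.6%), against 2233 of the 3715 c34 domains that overlapped c13 (60.1%). At 788 gained domains (51.2%) c7 cells already had a domain, and at 915 (59.5%) E18.5 oocytes had one. By length, GV H3K27me3 covered 51.4% of the gained domains, c7 42.0% and E18.5 54.1%. The same lists covered 28.3%, 35.1% and 39.7% of all autosomes.

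The widest gained domain, chr7:116800001-117800000 (1000 kb), surrounds Xylt1, which encodes a xylosyltransferase of proteoglycan synthesis, and GV H3K27me3 covered 93.0% of it against 0% in c7 and at E18.5. The second, chr1:120540001-121300000 (760 kb), surrounds the homeobox gene En1 and was covered to 46.1% in c7, 96.1% at E18.5 and 94.7% in GV oocytes. chr7:112120001-112770000 (650 kb) holds 5 gained genes: Dkk3, a secreted Wnt pathway protein gene, Mical2, Micalcl, Parva and Tead1, a transcription factor gene of the Hippo pathway. chr1:71260001-71890000 (630 kb) holds Abca12, Atic and the fibronectin gene Fn1 and was covered to 17.5% in GV oocytes. chr12:88400001-89020000 (620 kb), with Adck1 and the neurexin gene Nrxn3, was covered to 14.5% there and to 100% in c7. The longest gained stretches that widened or joined existing domains were chr15:87120001-88670000 (1550 kb, Tafa5 and Zdhhc25) and chr13:72030001-73230000 (1200 kb, the homeobox gene Irx2), covered to 91.6% and 100% in GV oocytes.

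Windows of 1 Mb sorted by gene number showed where the balance turned. In 275 windows with no gene start, H3K27me3 covered 14.4% in c34 and 9.83% in c13, and in 485 windows with 1 to 2 starts 31.6% and 27.8%. In 531 windows with 6 to 10 starts it covered 45.1% in c34 and 54.2% in c13, and in 246 windows with 21 or more 37.4% and 56.8%. Gene-poor windows were thus more covered in c34 and gene-rich windows less. The gained share of c34 length fell across the 6 classes, from 56.0% with no gene start to 14.4% with 21 or more. That share depends on how much c13 already covered, so it does not show that gene-free windows gained most. Gained length was 22.2 Mb in the 275 windows with no start, 65.3 Mb in 438 windows with 3 to 5 starts and 13.2 Mb in the 246 densest. The lost share of c13 length stayed between 34% and 36.7% in 5 classes and was 43.7% in the densest.

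**Figure D4:**
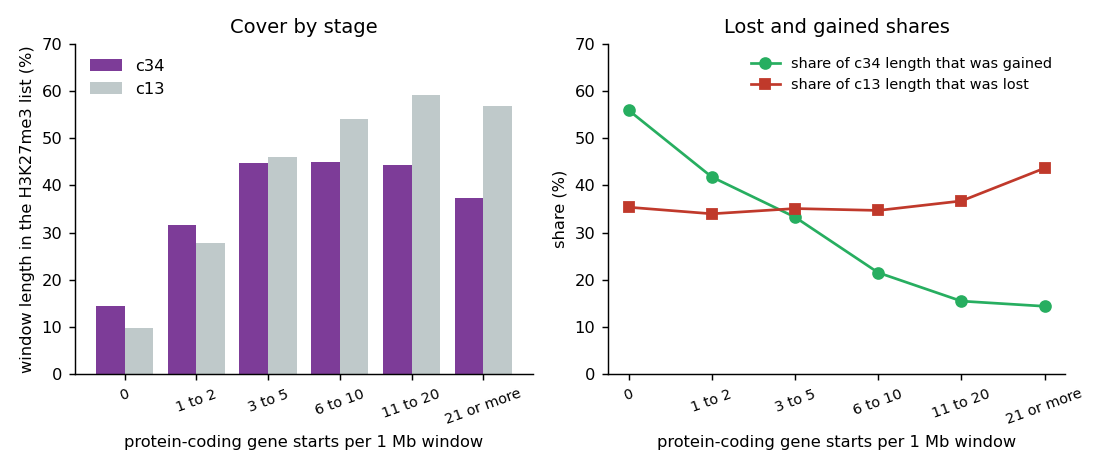
Left, share of 1 Mb windows in the H3K27me3 list (vertical axis, %) in c34 and c13 by number of protein-coding gene starts per window (horizontal axis). Right, the share of c34 length that was gained and of c13 length that was lost in the same windows; c34 cover exceeds c13 cover in windows with 0 to 2 starts and is lower from 3 starts on.

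At gene starts, H3K27me3 was lost at 5181 of 20661 autosomal protein-coding genes (25.1%), kept at 7043 (34.1%) and gained at 1397 (6.76%), where a gene counted when a domain lay within 1 kb of its start. Of the 12224 genes marked in c13, 42.4% were lost. H3K36me3 covered at least 50% of the body of 90.9% of lost genes in c34, 45.6% of kept and 31.4% of gained genes, against 61.6% of all genes. H3K4me3 lay at the start of 88.3% of lost, 58.0% of kept and 37.4% of gained genes in c34, against 64.9% of all. In GV oocytes H3K27me3 lay at 2.1% of lost, 58.6% of kept and 50.8% of gained starts, against 25.7% of all. Kept genes sat in narrower domains at the later stage, with a median of 240 kb in c34 against 590 kb in c13. Lists of genes below are described by counts to be read against these shares, so that lost genes that all carry c34 H3K36me3 are near the share of any lost gene. Values given as cover are the share of the gene body and 50 kb on each side that lies in the H3K27me3 list.

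Most oocyte genes marked in c13 had left the list in c34. Of 26 oocyte factors, 14 were lost (53.8%, against 25.1% of all genes), 5 kept, 1 gained and 6 marked at neither stage. All 14 lost genes had H3K36me3 over the body and H3K4me3 at the start in c34, and none had H3K27me3 in GV oocytes. The shares of all lost genes were close to these, at 90.9%, 88.3% and 2.1%. Figla, a transcription factor gene of follicle formation, had 32.4% cover in c34 and 100% in c13. Gdf9, which encodes a growth factor of the oocyte, had 35.2% in c34 and 53.7% in c13. Both H1f8, the oocyte linker histone gene, and Kit, the receptor for Kit ligand, were partly cleared, with 38.3% and 39.9% in c34 against 100% for each in c13. Khdc3 and Ooep of the subcortical maternal complex and Oosp1 had 0% in c34 and 100% in c13, and Npm2, a chaperone gene of oocyte chromatin, had 8.70% in c34 and 54.8% in c13.

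Before c34, H3K4me3 was not yet at all of these starts. In c34 it lay at 25 of the 26 oocyte factors and in c13 at 18, and H1f8, Khdc3, Npm2 and Oosp1 were among those marked in c34 and not in c13. Zp1, Zp2 and Zp3, which encode the zona pellucida proteins around the oocyte and were chosen after their values were seen, were all lost, with cover of 15.0%, 20.0% and 0% in c34 against 100%, 100% and 90.8% in c13. Kept members included Btg4, Gja4 and Lhx8, while Bcl2l10, Mos and Nlrp14 were marked at neither stage. The single gained factor was Sohlh2, a transcription factor gene of early oocyte differentiation, in a c34 domain of 610 kb, with 93.8% cover in c34, 0% in c13 and 93.8% in GV oocytes. With the narrowest c13 domains left out until both lists had equal length, 10 of the 14 lost factors kept that call; Ooep, H1f8, Oosp1 and Zp2 were then marked at neither stage. With gaps of up to 100 kb closed 8 were kept, and without domains of 1 Mb or more 2.

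Meiotic genes divided between lost and kept. Of 29 genes of meiotic entry and prophase, 11 were lost (37.9%, against 25.1% of all genes), 13 kept, 0 gained and 5 marked at neither stage. Of the 24 marked in c13, 11 were lost, near the 42.4% of all genes marked in c13. All 11 lost genes had H3K4me3 and H3K36me3 in c34, and none had H3K27me3 in GV oocytes. The shares of all lost genes were close to these, at 88.3%, 90.9% and 2.1%. Bhmg1, a partner of Stra8 also known as Meiosin, had 7.44% cover in c34 and 100% in c13, in a c13 domain of 440 kb. Dmc1, the meiotic recombinase gene, had 54.5% in c34 and 100% in c13. The chromosome axis genes Hormad1 and Hormad2 had 24.0% and 38.1% in c34 against 38.8% and 93.9% in c13. Meioc, Mlh3, Msh4 and Msh5, of meiotic progression and crossover formation, had between 0% and 57.6% in c34 and between 84.7% and 100% in c13.

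Among kept meiotic genes, Majin of the telomere attachment complex and Mei1 had 63.8% and 80.9% cover in c34 against 100% and 80.9% in c13. Prdm9, which marks recombination sites, had 69.7% at both stages, and the meiotic cohesin gene Rad21l had 31.5% in c34 and 100% in c13. H3K36me3 covered 6 of the 13 kept bodies in c34 against 11 of the 11 lost ones. Gaps between domains matter for this list: closing gaps of up to 100 kb, an alternative chosen after seeing the data, left 6 of the 11 lost, and leaving out domains of 1 Mb or more left 7.

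Genes of the germline and its piRNA pathway were lost and kept in equal numbers, 8 each of 19, with 3 marked at neither stage. Of the 16 marked in c13, 8 were thus lost, against 42.4% of all genes marked in c13. Ddx4, the germ cell RNA helicase gene, had 0% cover in c34 and 100% in c13, where it lay in a 350 kb domain, and 0% in GV oocytes. Gtsf1 and Henmt1 of the piRNA pathway had 0% and 0.71% in c34 against 100% for both in c13. Nanos3, needed for germ cell survival, had 6.73% in c34, Nanos2 42.2%, Piwil2 22.4%, Tdrd1 2.76% and Mael 63.8%, each against 100% in c13. All 8 lost genes had c34 H3K36me3 over the body, and 6 of 8 had H3K4me3 at the start, against 90.9% and 88.3% of all lost genes. Dazl, an RNA-binding protein gene of germ cells, was kept in a domain of 1300 kb in c34 against 2090 kb in c13, with H3K4me3 at the start at both stages. Mov10l1 and Piwil4 were kept too, while Asz1, Tdrd12 and Tdrd5 were marked at neither stage. Without domains of 1 Mb or more 4 genes of this list were kept and 3 gained.

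Pluripotency and early germ cell genes were mostly kept, with more gained than lost: 4 gained, 3 lost and 11 kept of 20. Nanog and Dppa3, neighbours on chromosome 6, were gained together in a 490 kb c34 domain that covered 100% of the surroundings of both genes in c34 and the same share in GV oocytes; c13, c7 and E18.5 cells had 0%. Nanog, a core pluripotency factor gene, had H3K4me3 at the start in c13 and not in c34, whereas Dppa3, a maternal factor that the line also reports on, had it at both stages. Zfp42 (also known as Rex1) was gained in a 240 kb domain with 84.1% cover in c34 and 17.7% in GV oocytes. Dppa4 was gained in a 60 kb domain with 53.6% cover in c34, 37.5% in c7, 15.2% at E18.5 and 0% in GV oocytes. The 4 gained calls held in every alternative run on genes, though equal list length removes only c13 domains and could not undo a gained call. Without domains of 1 Mb or more 6 were kept and 7 gained.

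The lost members of that list were Dppa5a, Lin28a and Prdm1. Prdm1, which directs specification of germ cells, had 0% cover in c34 against 100% in c13, where its domain was 430 kb wide; c7, E18.5 and GV cells had 0%, and H3K36me3 was at 0% in both c34 and c13. At equal list length Dppa5a and Lin28a were no longer called lost. Esrrb, Fgf4, Ifitm3 and Klf4 were kept with between 80.8% and 100% cover in c34 and 100% in c13. Dnd1 and Dppa2 were marked at neither stage.

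Nearly all developmental regulators kept the mark. Of 30 such genes 29 were kept, 0 lost and 1 gained, and 24 were kept and 6 gained at equal list length; the median cover was 98.5% in c34 and 100% in c13. The gained gene was En1, which had 100% cover in c34, 0% in c13 and 100% in c7 and at E18.5. Foxa2 of the endoderm had 100% at both stages, and Gata4 47.1% in c34 and 81.6% in c13. Cdx2 of the trophectoderm, En2 and Eomes had 53.7%, 63.0% and 66.1% in c34 against 100%, 100% and 75.2% in c13, in domains of 110, 70 and 140 kb in c34 against 330, 330 and 360 kb in c13. The domains thus narrowed around several of these genes while the starts stayed marked. In GV oocytes 19 of the 30 starts were marked, against 30 in c7 and 28 at E18.5.

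All 39 Hox genes and all 49 keratin genes were kept. The Hox count held without domains of 1 Mb or more, whereas 0 keratin genes were then kept and 24 were gained, since these genes lay in domains with a median of 1210 kb in c34 and 1630 kb in c13. The 4 Hox clusters lay in c34 domains of 490 kb (Hoxa), 430 kb (Hoxb), 290 kb (Hoxc) and 170 kb (Hoxd), against 550, 710, 570 and 230 kb in c13, and 0 of the 39 bodies carried H3K36me3 in c34 against 19 in c13, those of Hoxb and Hoxc. All 9 Pax genes, 15 of 18 Sox genes, 14 of 16 T-box genes and 12 of 14 Nkx genes were kept, and 29 of 41 forkhead genes, of which 11 were lost. Potassium channel genes were kept in 69 of 92 cases and lost in 13. Without domains of 1 Mb or more 8 Sox, 7 Nkx and 15 forkhead genes were kept, and at equal list length 5 Pax and 8 Nkx genes. These families stand above the 34.1% kept among all genes by count alone, and genes of a cluster share domains, so members are not separate observations.

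Genes of the Polycomb machinery and of other chromatin enzymes were often lost. Of 19 Polycomb and H3K27 genes, 10 were lost (52.6%, against 25.1% of all genes), 5 kept and 0 gained. Ezh1, the alternative catalytic subunit, had 29.4% cover in c34 and 100% in c13, and Jarid2, a cofactor of the complex, 10.3% in c34 and 28.1% in c13. Phf1, another cofactor gene, and the H3K27 demethylase gene Kdm6b had 25.7% and 26.8% in c34 against 100% for both in c13. Of Polycomb repressive complex 1 genes, Bmi1 had 63.6%, Cbx7 28.7%, Pcgf2 53.9% and Pcgf6 0% in c34, against 100%, 100%, 80% and 73.7% in c13. The core subunit genes Eed and Ezh2 and the cofactor gene Mtf2 were marked at neither stage, whereas Cbx2 and Cbx8, which lie near each other, were kept in a shared domain of 960 kb in c34 and 2660 kb in c13. Leaving out domains of 1 Mb or more left 5 of the 10 lost, and Pcgf2 counted as kept with a window of 5 kb or with either gene end.

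Of 19 genes of DNA methylation and of H3K4 or H3K36 methylation, 12 were lost (63.2%, against 25.1% of all genes), 2 kept and 1 gained. All 12 lost genes had c34 H3K36me3, as did 90.9% of all lost genes. Dnmt3b, a de novo methyltransferase gene, had 15.1% cover in c34 and 100% in c13, and Dnmt3l, the cofactor that oocytes need to set imprints, 11.5% in c34 and 100% in c13. The H3K4 demethylase genes Kdm1b and Kdm5b had 16.1% and 0% in c34 against 100% and 59.5% in c13. The H3K4 methyltransferase genes Kmt2a, Kmt2b and Kmt2d had 0%, 34.4% and 27.1% in c34 against 27.9%, 67.2% and 100% in c13. Cxxc1, a subunit of an H3K4 methyltransferase complex, had 50.9% in c34 and 100% in c13. Dnmt3a and Nsd1 were kept, Dnmt1, Kmt2c, Nsd3 and Setd2 were marked at neither stage, and the single gained gene was the dioxygenase gene Tet1 (75% in c34, 0% in c13). At equal list length 8 of the 12 lost calls held.

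Genes whose imprinting rests on maternal H3K27me3 were mostly kept, and the rest were gained rather than lost in 4 of 6 cases. Of 16 such genes on the autosomes 4 were gained (25%, against 6.76% of all genes), 10 kept and 2 lost, so that 14 were marked in c34, 12 in c13 and 15 in GV oocytes. The gained genes Etv6, Gab1, Jade1 and Rbms1 had 100%, 78.8%, 58.6% and 100% cover in c34 against 24.1%, 0%, 0% and 6.37% in c13. All 4 were marked in GV oocytes, with 100%, 83.4%, 58.6% and 100% cover. Clic6, Enc1, Epas1, Inhbb, Otx2 and Runx1 were kept with 100% cover at both stages. Bbx and Slc38a4 were lost by the rule on the start, although 26.9% and 75.3% of their surroundings lay in the c34 list and 35.7% and 100% in the c13 list. Slc38a4 counted as kept, and Bbx as marked at neither stage, when at least 50% of the gene body had to be covered. Without domains of 1 Mb or more 4 were kept and 6 gained.

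Of 15 genes imprinted by maternal DNA methylation 7 were lost (46.7%, against 25.1% of all genes), 1 kept, 0 gained and 7 marked at neither stage. All 7 lost genes had H3K36me3 over the body in c34, near the 90.9% of all lost genes. Grb10, Mcts2 and Plagl1 had 9.62%, 32.7% and 28.2% cover in c34 against 100% for each in c13. Mest and Zdbf2 had 0% and 14.0% in c34 against 49.1% and 65.1% in c13. Nnat and Peg10 had 61.2% and 64.9% in c34 against 100% in c13. Kcnq1 was kept, and Igf2r, Impact, Inpp5f, Nap1l5 and Peg3 were among those marked at neither stage.

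Markers of ovarian somatic cells were mostly kept, 15 of 20, with 2 lost and 2 gained; at equal list length 11 were kept and 6 gained. Foxl2, Cyp11a1, Cyp19a1 and Fst were kept with between 63.2% and 100% cover in c34. Fshr, the receptor for follicle-stimulating hormone, was gained with 100% cover in c34 against 52.4% in c13, and Kitl with 29.6% against 0%. Amh, the anti-Müllerian hormone gene of granulosa cells, and Upk3b were lost, with 46.6% and 28.0% in c34 against 100% for both in c13. All 7 oocyte markers (Ddx4, Dazl, Nobox, Figla, Sohlh1, Gdf9 and Zp3) had H3K4me3 at the start in c34 and in c13, against 64.9% and 70.3% of all genes. The markers were picked with earlier results of these data known, so they are no check of the labelled cell type. In the longer lists, 25 of 26 oocyte factors had H3K4me3 in c34 and 18 in c13, and 14 and 16 of 19 germline genes. H3K27me3 lay at 2 of the 7 marker starts in c34 and at 6 in c13. Of 6 somatic markers (Foxl2, Amhr2, Fshr, Cyp19a1, Wt1 and Nr2f2), 3 had H3K4me3 in c34 and 4 in c13, and 6 had H3K27me3 in c34 and 5 in c13; whether other cells contributed was not tested.

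**Figure D5:**
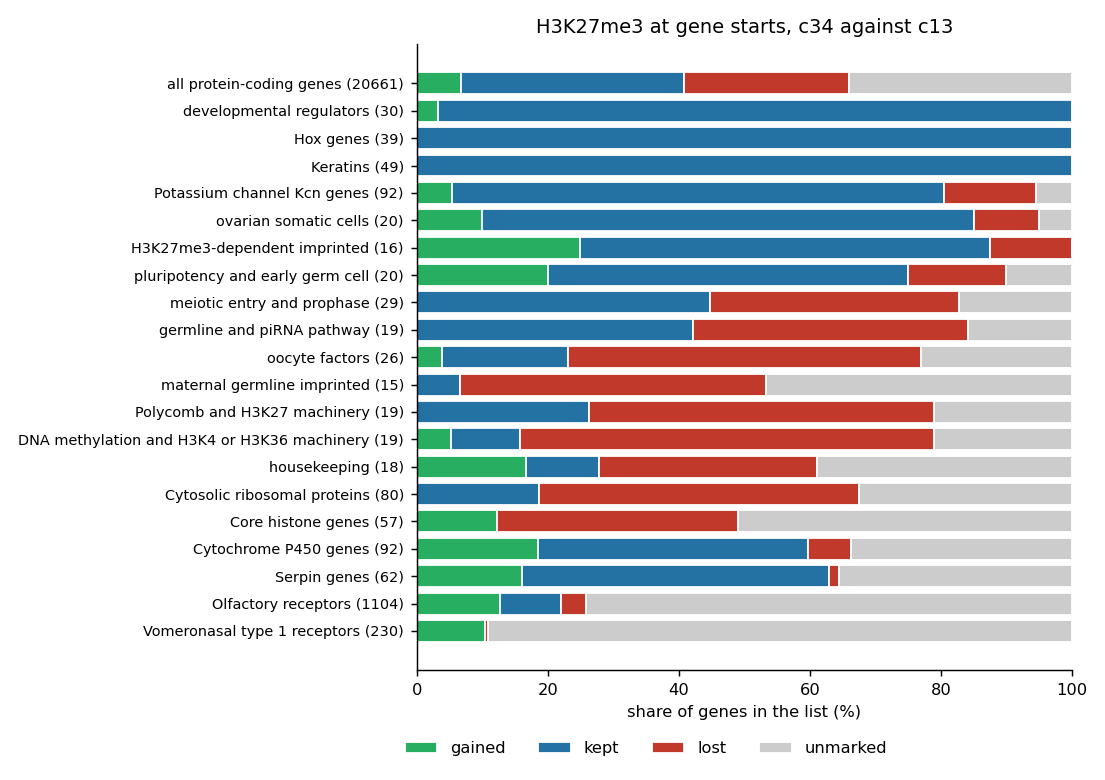
Share of genes (horizontal axis, %) whose start gained, kept or lost H3K27me3 in c34 against c13, or was marked at neither stage, for all 20661 autosomal protein-coding genes and for lists and families (vertical axis, number of genes in brackets). Lost shares are 53.8% for oocyte factors and 63.2% for the DNA methylation and H3K4 or H3K36 list against 25.1% for all genes, and all Hox and keratin genes were kept.

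H3K27me3 domains also lay over ubiquitously expressed genes at both stages. Of 18 housekeeping genes 6 were lost, 2 kept, 3 gained and 7 marked at neither stage, and H3K4me3 lay at all 18 in c34. The gained ones were Actb, Gusb and Hspa8, which had 61.9%, 27% and 100% cover in c34 and 0%, 0% and 52.4% in c13. Of the lost ones, B2m, Eef2, Polr2a and Ppia had between 23.8% and 50.5% in c34 against between 78.5% and 100% in c13. Of 80 genes of cytosolic ribosomal proteins 39 were lost (48.8%, against 25.1% of all genes), 15 kept and 0 gained. Among these 39, 36 carried c34 H3K36me3. With gaps of up to 100 kb closed 8 housekeeping genes were kept and 3 lost, and 30 ribosomal protein genes were kept and 29 lost. Ribosomal protein genes are highly transcribed in most cells, and 15 of the 80 starts lay in H3K27me3 domains in c34, against 54 in c13 and 3 in GV oocytes.

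Several other large families had more gained than lost starts. Of 1104 olfactory receptor genes 41 were lost, 103 kept, 141 gained (12.8%) and 819 marked at neither stage, and 100 of the 141 gained starts were also marked in GV oocytes. Of 230 type 1 vomeronasal receptor genes 24 were gained, 1 was lost and 205 were marked at neither stage. In c13 only 144 olfactory and 1 type 1 vomeronasal receptor start were marked, against 12224 of 20661 genes. Few of these starts could thus be lost and many could be gained. The excess of gained over lost starts therefore does not show that receptor genes gained the mark preferentially. Of 122 type 2 vomeronasal receptor genes 7 were gained (5.74%, against 6.76% of all genes) and 1 was lost, and of 45 Prame-like genes 0 were gained. Of 62 serpin genes, which encode protease inhibitors, 10 were gained, 29 kept and 1 lost, but leaving out domains of 1 Mb or more turned this to 8 gained, 8 kept and 20 lost. Of 92 cytochrome P450 genes 17 were gained, 38 kept and 6 lost, and 26 were gained at equal list length. Core histone genes went the other way, with 21 lost, 7 gained, 29 marked at neither stage and 0 kept of 57. At equal list length only 2 histone genes were lost against 7 gained, and with gaps of up to 100 kb closed 32 were lost, 12 gained and 9 kept. In c7 and at E18.5 the olfactory receptor starts were marked more often than at either compared stage, at 447 and 507 of 1104 genes, against 244 in c34, 144 in c13 and 284 in GV oocytes.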

How the data were processed

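Histone marks were profiled by CATCH-seq, and the authors deposited 13 peak lists, 1 per stage and mark, in an other unit than counts: genomic intervals in base pairs (Chromosome, Start and End per the file headers). Their starts count from 0 and their ends are inclusive, on a grid of 10 kb for H3K27me3 and H3K36me3 and 1 kb for H3K4me3; printed coordinates are 1-based. The submitters' processing notes list the builds mm10 and GRCm38.p3, the peak callers SICER 0.0.41 and MACS2 2.1.1, the aligner Bowtie2 2.3.4.1, the trimmers cutadapt 1.9.1 and Trim Galore 0.4.1, and SAMtools 1.7. For the caller of each list, its threshold, its input and any pooling of the 2 libraries per stage, nothing is given in the sources used here, and depth is unknown.

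Lists were placed on autosomes 1 to 19 (2461 Mb). A c13 domain was lost with no c34 overlap, split with 2 or more c34 domains, and otherwise kept whole from 80% cover or trimmed. Gene starts came from RefSeq (GRCm38.p6, same primary assembly): 16456 of 20661 protein-coding genes had a strand, and either end served for the other 4205. The genes and lists were chosen with earlier results of these data known. Named genes were, per list, up to 8 whose state differed and up to 6 kept or unmarked, in symbol order, and for domains up to 6 genes in position order in the 5 widest or most divided; exceptions are marked. Domains kept whole and the longest gained stretches were added to that rule. Of 237 list entries, 6 were not among autosomal protein-coding genes and 1 matched through an older symbol. All 200 simulated domains were given their known fate. GC content of domains was not analysed here, since no genome was used. Alternatives changed the chromosomes, widths, gaps, list length, overlap rules and gene windows. Python 3.11.15, numpy 2.4.6, pandas 2.3.3 and matplotlib 3.10.9 were used.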

Additional observations from a re-analysis of the deposited data

Results flagged for a closer look

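Chromosome X, which the comparisons leave out, stood apart: its c34 H3K27me3 list covered 1.97 times the c13 length, 18.9 Mb in c34 against 9.56 Mb in c13, where the highest ratio of an autosome was 1.14. Of the c34 length on X, 68.6% was gained, and 38.0% of the c13 length was lost. H3K27me3 on X amounted to 27.5 Mb in c7 cells and 56.8 Mb in E18.5 oocytes. GV oocytes had 23.5 Mb. It was singled out as signal outside the main comparison; there are no replicate lists and no difference was tested.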

How the results depend on the processing

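Of 141 values of the main comparisons recomputed under alternatives, 124 stayed the same, 16 moved and 1 changed direction. Staying the same meant within 1.5 times for counts and within 1 SD over autosomes for shares and ratios. The 124 include 19 values from closing gaps of up to 30 kb, which could change nothing. They also include the c34 to c13 length ratio at equal list length, which that alternative fixes. Adding chromosome X left 19 values the same, but it added only 9.56 Mb to 1043 Mb of c13 length. At equal list length 6 values moved and 13 stayed, and with gaps of up to 100 kb closed 5 and 14. Without domains of 1 Mb or more 4 moved, 1 changed direction and 14 stayed. Leaving out domains of 1 Mb or more turned the ratio of c34 to c13 length to 1.25, with 52.6% of c34 length gained, 2400 gained domains, 3039 gained genes and 6.54% of lost length in the GV list. At equal list length, reached by leaving out the narrowest c13 domains, 35 c13 domains were lost, 273 kept whole and 256 trimmed, 2528 c34 domains and 2545 genes were gained, and the gained to shared gene density was 0.80. That density ratio was 0.89 by gene bodies. Closing gaps of up to 100 kb, chosen after seeing the data, gave 230 lost, 300 trimmed and 446 split c13 domains, 816 gained c34 domains and 30.9% of shared length in the c34 H3K36me3 list; closing gaps of up to 30 kb changes nothing, because no list has one. The direction of the gene density contrasts held in every alternative run. Of counts by gene list or family, 642 of 750 stayed within 1.5 times, and 75 of these 642 came from closing gaps of up to 30 kb. Genes with a strand only was also added after seeing the data. No paired analysis was possible because each stage has 1 peak list with no replicate identity, and no replicate could be left out. Depth and threshold limit every loss and gain: a shallower or noisier c13 or c34 library cannot be told apart from a change of the mark.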
